A study of Mus musculus with 2 samples.

Results

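Hox genes of the clusters Hoxa, Hoxb, Hoxc and Hoxd were compared between newborn MatDp(dist2) head and newborn PatDp(dist2) head. Members were all probe sets on the expression array whose only gene symbol in the platform annotation was Hoxa, Hoxb, Hoxc or Hoxd with a number, without antisense or opposite-strand transcripts. They were 48 of 45101 probe sets and stood for 33 of the 39 genes of the clusters. The others had no such probe set and were not analysed here.

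The samples were whole heads, 1 array for each genotype, and both groups were offspring of carriers of the reciprocal translocation T(2:9)11H, named T11H. MatDp(dist2) mice have a distal Chr 2, from the T11H breakpoint on, of which each copy is maternal, and a distal Chr 9 of which each copy is paternal. PatDp(dist2) mice have a paternal distal Chr 2 and a maternal distal Chr 9. No group without the duplications was analysed here, and neither the sex nor the number of animals behind an array is stated in the sources used here. The comparison asks which transcripts depend on the parent that a chromosome part came from, and for Hox genes it sets the transcripts of the hindbrain and neck side by side in the 2 heads.

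Hox genes encode homeodomain transcription factors that give cells their position along the body from the hindbrain to the tail. Each cluster is read in order, so that genes of low number (paralog groups) are used from the hindbrain backwards and genes of high number only in the trunk, limbs and tail. The forebrain, the midbrain and the neural crest of the face and of most of the skull vault are formed by cells without Hox expression. In a head, Hox transcripts are therefore known mainly from the hindbrain, the nerves and ganglia behind it, the hyoid region and the tissues of the neck.

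Values are MAS5 signals on a linear scale, as the authors deposited them, and a signal is called measured at or above a floor of 187. With 1 array per genotype there is no spread between animals and no test. Each difference is a description of these arrays. The floor is the median over both arrays of their median signal, because detection calls were not used. The fold is the ratio of the signals, and where 1 head lay under the floor it is a bound, written "at least", of the brighter signal over the floor. A level of one probe set cannot be set against that of another. Signals ranged up to 22236 in MatDp(dist2), against 22895 in PatDp(dist2), and 51.6% of probe sets in MatDp(dist2) and 48.3% in PatDp(dist2) were at or above the floor.

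The tissue label was checked on genes of the newborn head, of which 13 of 14 were measured on at least 1 array, the exception being the olfactory gene Omp (142 in MatDp(dist2), against 122 in PatDp(dist2)). The lens crystallins Cryaa and Cryba1 had signals of 3456 and 9053 in MatDp(dist2) but of 7.2 and 6.0 in PatDp(dist2), so that defining markers of the lens lay under the floor there. Krt10, a keratin of the epidermis, had a signal of 12993 in MatDp(dist2), against 756 in PatDp(dist2). The 8 that were at least 2-fold higher in MatDp(dist2) also held the neuronal genes Tubb3 (2853 in MatDp(dist2), against 774.8 in PatDp(dist2)) and Dcx (4241 in MatDp(dist2), against 1259 in PatDp(dist2)), the pituitary hormone gene Gh and the cartilage collagen gene Col2a1. The tooth genes Ambn, Amelx and Dspp were at least 2-fold lower. Lens, skin, neuronal, pituitary, cartilage and tooth markers thus differed between the arrays, and every Hox value below comes from the same arrays. How far dissection or sampling of the heads moved the Hox values was not tested.

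Of the 48 Hox probe sets, 17 were measured on at least 1 array, and they stood for 12 genes. The other 31 lay under the floor on both arrays. Of the 17, 16 had a lower signal in MatDp(dist2), where 44.3% of all measured probe sets with 1 gene symbol did, and 36.7% of those in the same range of mean signal. At least 2-fold lower in MatDp(dist2) were 2 of the 17, against a background of 2.95% of all 20764 measured probe sets and 1.91% of the 11401 in the signal range of the Hox probe sets. None of the 17 was at least 2-fold higher in MatDp(dist2), a direction taken by 4.22% of all measured probe sets. The median log2 ratio of MatDp(dist2) over PatDp(dist2) was -0.37 for the 17 Hox probe sets and 0.06 for all measured probe sets. Most measured Hox probe sets were thus lower in MatDp(dist2), and most ratios with the floor were under 2-fold. Where only PatDp(dist2) reached the floor the ratio is a bound, so its size is not known. With the signals as deposited, without the floor, the median was -0.67 for the 17 and 0.07 for all measured probe sets.

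A filter on low signals bears on these counts. Of the 17, 6 were measured only in PatDp(dist2), and these had to be lower in MatDp(dist2). The other 11 were measured in both heads, and 10 of them were lower in MatDp(dist2), where 46.8% of all probe sets measured on both arrays were. Their median log2 ratio was -0.37, against 0.03 over all 18071 probe sets measured on both arrays and 0.12 over the 9099 of them in the signal range of the Hox probe sets. At a lower threshold of 1.5-fold, 6 of the 17 were lower in MatDp(dist2), against 9.42% of all measured probe sets, and 0 were higher. In the signal range of the Hox probe sets the background of that direction was 6.87%. Among the 11 measured in both heads, 4 were at least 1.5-fold lower, against 9.89%, and 1 was at least 2-fold lower, against 3.05%. None of the 11 was at least 2-fold higher, against 3.64%.

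Descriptions of scatter stand beside these values. Over the 9099 probe sets in the same signal range, the log2 ratio had a robust SD of 0.41. This is a spread across different probe sets and not the error of a single ratio. Beside it, the ratio was -0.18 for Hoxb5, and -1.10 and -0.74 for the 2 probe sets of Hoxa5. Over 4369 genes with at least 2 probe sets measured in both heads, the 2 brightest differed in log2 ratio by a median of 0.25, and 90% of genes differed by less than 0.67. Neither replaces a replicate. In whole heads, fewer cells of a type and less RNA per cell cannot be told apart.

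**Figure D1:**
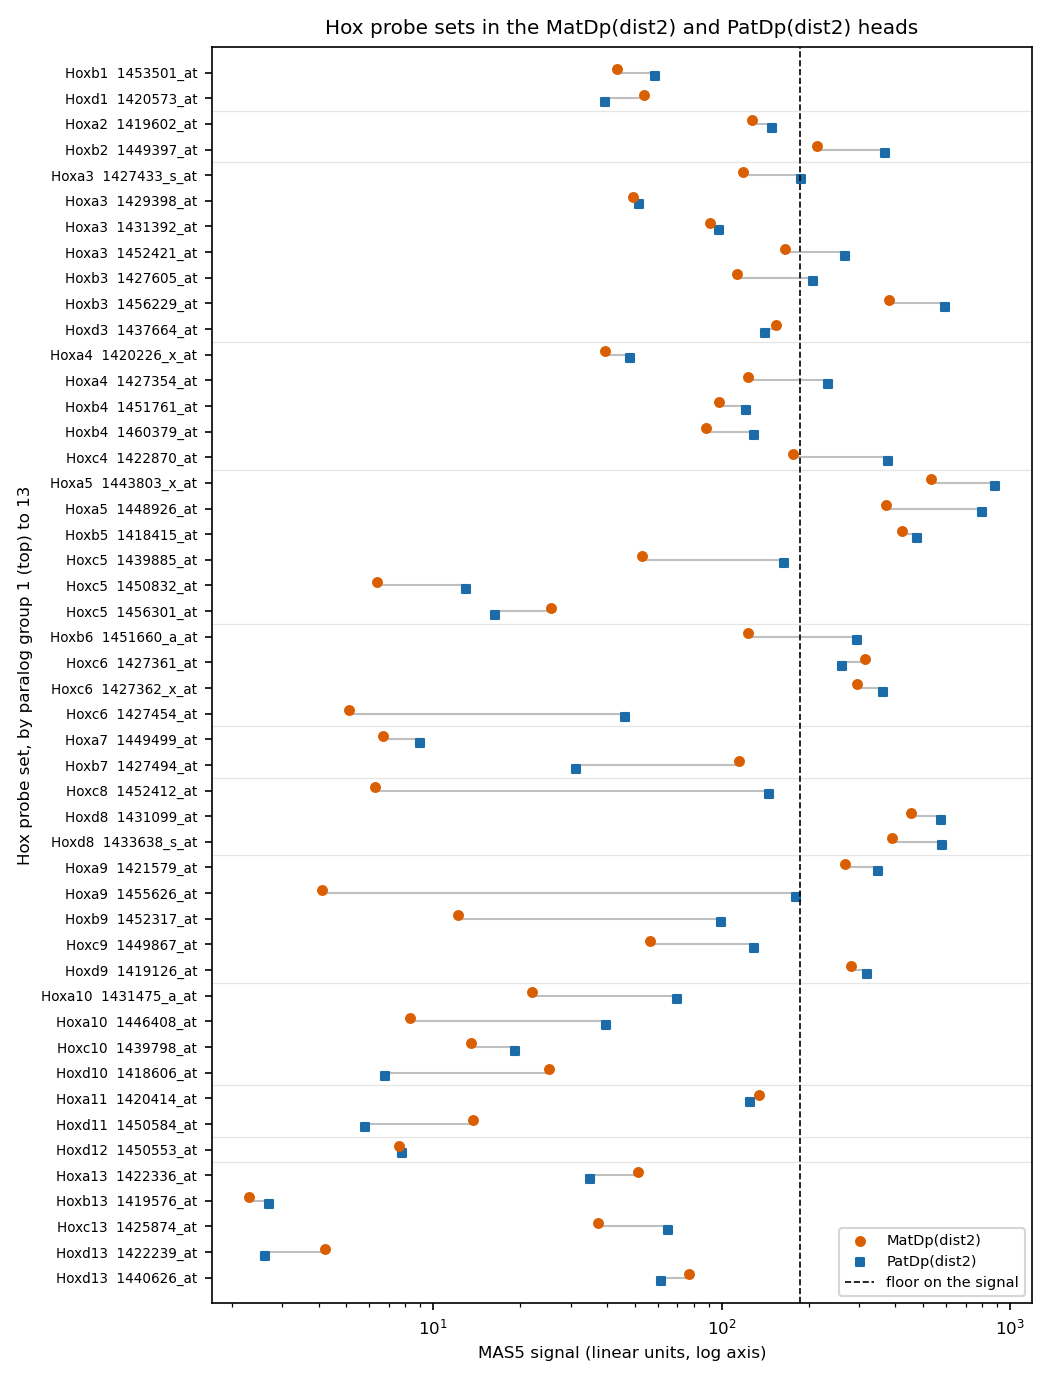
MAS5 signal (linear units on a log axis) of each of the 48 Hox probe sets in MatDp(dist2) (circles) and the PatDp(dist2) head (squares), ordered from paralog group 1 at the top to 13 at the bottom, with the floor of 187 as a dashed line. The 17 probe sets that reach the floor lie in groups 2 to 9, and in 16 of them the square lies right of the circle.

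At the chosen floor, Hoxa5 and Hoxc4, which act at the level of the neck, were the genes past 2-fold. Their promoters are shown with that of Hoxd8, which was measured on both of its probe sets, and with that of Hoxd13, a gene of digits and tail that lay under the floor. Each is the RefSeq window on GRCm38.p6 from 250 bases before the start of the gene to 50 bases after it, and capitals mark TAAT, the core that homeodomains bind, on either strand (ATTA on the other). The Hoxa5 window lies at chr6:52204538-52204837 on the minus strand, that of Hoxc4 at chr15:103034145-103034444, that of Hoxd8 at chr2:74704365-74704664 and that of Hoxd13 at chr2:74667975-74668274, the last 3 on the plus strand.
Hoxa5: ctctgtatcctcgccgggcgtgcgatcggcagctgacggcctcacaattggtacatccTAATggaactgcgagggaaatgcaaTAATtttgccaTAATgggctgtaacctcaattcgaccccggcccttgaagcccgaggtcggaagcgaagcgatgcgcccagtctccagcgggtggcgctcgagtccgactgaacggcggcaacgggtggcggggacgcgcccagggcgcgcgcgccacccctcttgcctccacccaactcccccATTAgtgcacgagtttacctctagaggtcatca
Hoxc4: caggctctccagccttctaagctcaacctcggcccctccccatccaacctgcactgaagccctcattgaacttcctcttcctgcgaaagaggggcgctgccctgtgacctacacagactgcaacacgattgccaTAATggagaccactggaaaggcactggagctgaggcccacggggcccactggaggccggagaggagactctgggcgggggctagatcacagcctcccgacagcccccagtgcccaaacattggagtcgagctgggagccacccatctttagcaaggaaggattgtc
Hoxd8: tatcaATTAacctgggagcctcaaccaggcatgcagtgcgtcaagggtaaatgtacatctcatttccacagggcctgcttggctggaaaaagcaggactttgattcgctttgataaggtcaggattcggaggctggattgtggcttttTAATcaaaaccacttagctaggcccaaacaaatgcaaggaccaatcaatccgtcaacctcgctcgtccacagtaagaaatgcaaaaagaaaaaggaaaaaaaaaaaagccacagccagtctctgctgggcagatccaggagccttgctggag
Hoxd13: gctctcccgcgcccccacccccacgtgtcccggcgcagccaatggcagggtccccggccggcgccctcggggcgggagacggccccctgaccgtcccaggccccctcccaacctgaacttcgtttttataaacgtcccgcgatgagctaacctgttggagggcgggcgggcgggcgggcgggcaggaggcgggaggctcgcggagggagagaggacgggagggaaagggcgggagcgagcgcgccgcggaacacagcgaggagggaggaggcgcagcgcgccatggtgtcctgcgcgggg

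TAAT occurred 4 times in the Hoxa5 window, 1 time in that of Hoxc4, 2 times in that of Hoxd8 and 0 times in that of Hoxd13. RefSeq windows were found for 19 of the 33 genes, 6 of them measured, and for 3 more Hox genes without a probe set. Of the 24 Hox windows 79.2% held TAAT on either strand, against 58.0% of all 32851 windows. The motif TGATNNAT, read by Pbx together with Hox proteins, was in 16.7% of Hox windows and 8.85% of all, and the Meis motif TGACAG in 8.33% and 19.2%. The Hox windows had a median of 14.5 CpG against 7 in all windows. The motif counts used both strands, TAAT can fall inside TGATNNAT, and a match is a description of letters only.

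Paralog groups 1 to 4 hold the genes of the hindbrain and of the arches behind the jaw. Of their 16 probe sets 7 were measured, and all 7 were lower in MatDp(dist2), 5 of them measured in PatDp(dist2) alone. Hoxb2, which patterns the rhombomeres of the facial motor neurons, had signals of 214 in MatDp(dist2), against 369 in PatDp(dist2), 1.72-fold lower in MatDp(dist2). No probe set of group 1 reached the floor. Hoxb1, the gene of the fourth rhombomere, had signals of 43.3 in MatDp(dist2), against 58.5 in PatDp(dist2), and Hoxd1, a gene of pain-sensing neurons in the mouse, of 53.8 in MatDp(dist2), against 39.3 in PatDp(dist2). Hoxa2, which sets the identity of the second arch, was also below the floor, with signals of 127 in MatDp(dist2), against 149 in PatDp(dist2).

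Group 3 differed from probe set to probe set. Hoxb3, a gene of the caudal hindbrain, had a signal of 381 in MatDp(dist2), against 592 in PatDp(dist2) on probe set 1456229_at, 1.55-fold lower in MatDp(dist2). Its other probe set, 1427605_at, had signals of 113 in MatDp(dist2), against 206.5 in PatDp(dist2), which is at least 1.10-fold lower in MatDp(dist2). Both probe sets of Hoxb3 had the same direction. Hoxa3, needed for the thymus and parathyroid in the mouse, had signals of 166 in MatDp(dist2), against 267 in PatDp(dist2) on 1452421_at, at least 1.43-fold lower in MatDp(dist2), and of 119 in MatDp(dist2), against 189 in PatDp(dist2) on 1427433_s_at, at least 1.01-fold lower. The other 2 Hoxa3 probe sets lay under the floor, 1 at 49.2 in MatDp(dist2), against 51.6 in PatDp(dist2) and 1 at 91.3 in MatDp(dist2), against 97.5 in PatDp(dist2). Hoxd3, a gene of the upper neck vertebrae, lay under the floor too, at 155 in MatDp(dist2), against 142 in PatDp(dist2).

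Group 4 acts from the caudal hindbrain into the neck vertebrae. Hoxc4 had a signal of 176 in MatDp(dist2), just below the floor, and of 376 in PatDp(dist2). It was at least 2.01-fold lower in MatDp(dist2), the bound just past the 2-fold threshold. Hoxa4 had signals of 123 in MatDp(dist2), against 233 in PatDp(dist2) on 1427354_at, at least 1.25-fold lower in MatDp(dist2), and of 39.3 in MatDp(dist2), against 48.1 in PatDp(dist2) on 1420226_x_at. Both probe sets of Hoxb4 lay under the floor on both arrays, with signals of 97.4 and 87.8 in MatDp(dist2) and of 121 and 129 in PatDp(dist2).

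Groups 5 to 8 act from the neck to the upper trunk. Of their 15 probe sets 8 were measured, 7 of them in both heads, and 7 of the 8 were lower in MatDp(dist2). Hoxa5, a gene of the neck to chest transition of the spine and of phrenic motor neurons in the mouse, passed 2-fold on 1 of its probe sets. It had signals of 372 in MatDp(dist2), against 799.7 in PatDp(dist2) on 1448926_at, which is 2.15-fold lower in MatDp(dist2). On 1443803_x_at it had 529 in MatDp(dist2), against 883 in PatDp(dist2), 1.67-fold lower. The 2 probe sets of Hoxa5 shared the direction and differed from each other by 0.37 in log2 ratio. Hoxb5, a gene of the shoulder region and of gut nerve cells, had closer signals of 421 in MatDp(dist2), against 476 in PatDp(dist2), 1.13-fold lower in MatDp(dist2).

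Hoxc5, the third gene of group 5, lay under the floor on its 3 probe sets, at 52.9, 6.4 and 25.6 in MatDp(dist2) and at 164, 13 and 16.3 in PatDp(dist2). Hoxb6, a gene of neck and chest vertebrae, had signals of 123 in MatDp(dist2), against 295 in PatDp(dist2), at least 1.58-fold lower in MatDp(dist2), a bound that the floor sets. Hoxc6, which marks motor neurons at the level of the forelimb, was the only gene with measured probe sets of both directions. On 1427361_at it had a signal of 313 in MatDp(dist2), against 260.3 in PatDp(dist2), 1.20-fold higher in MatDp(dist2). On 1427362_x_at it had 295 in MatDp(dist2), against 362 in PatDp(dist2), 1.23-fold lower, and 1427454_at lay under the floor at 5.1 in MatDp(dist2), against 46.3 in PatDp(dist2). The measured pair differed by 0.56 in log2 ratio, within the range of 90% of genes above, so the probe sets give no single direction for Hoxc6.

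Group 7 was below the floor, with signals of 6.7 in MatDp(dist2), against 9.0 in PatDp(dist2) for Hoxa7 and of 115 in MatDp(dist2), against 31.2 in PatDp(dist2) for Hoxb7. In group 8, Hoxd8 was measured on both probe sets. It had signals of 452 in MatDp(dist2), against 573 in PatDp(dist2) on 1431099_at, 1.27-fold lower in MatDp(dist2), and of 390.5 in MatDp(dist2), against 580.2 in PatDp(dist2) on 1433638_s_at, 1.49-fold lower. Hoxc8, a gene of chest vertebrae and forelimb motor pools, lay under the floor at 6.3 in MatDp(dist2), against 146 in PatDp(dist2).

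Groups 9 to 13 act in the trunk, limbs and tail, and only 2 of their 17 probe sets were measured, both of group 9. Hoxa9 had signals of 268 in MatDp(dist2), against 347 in PatDp(dist2) on 1421579_at, 1.29-fold lower in MatDp(dist2). Its other probe set, 1455626_at, lay just below the floor in PatDp(dist2) and far below it in MatDp(dist2), at 4.1 in MatDp(dist2), against 181 in PatDp(dist2). Hoxd9 had signals of 280.2 in MatDp(dist2), against 318 in PatDp(dist2), 1.13-fold lower in MatDp(dist2). Under the floor lay Hoxb9 at 12.2 in MatDp(dist2), against 99.4 in PatDp(dist2) and Hoxc9 at 56.2 in MatDp(dist2), against 130 in PatDp(dist2).

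From group 10 onwards none of 12 probe sets reached the floor in either head. These were the probe sets of Hoxa10, Hoxc10, Hoxd10, Hoxa11, Hoxd11, Hoxd12, Hoxa13, Hoxb13, Hoxc13 and Hoxd13. Hoxa11, a gene of the forearm and kidney, had signals of 134 in MatDp(dist2), against 125 in PatDp(dist2), and Hoxc13, which is also used in hair follicles and nails, of 37.1 in MatDp(dist2), against 65.0 in PatDp(dist2). No order can be read among signals below the floor, and a signal below it does not show that a gene was silent.

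**Figure D2:**
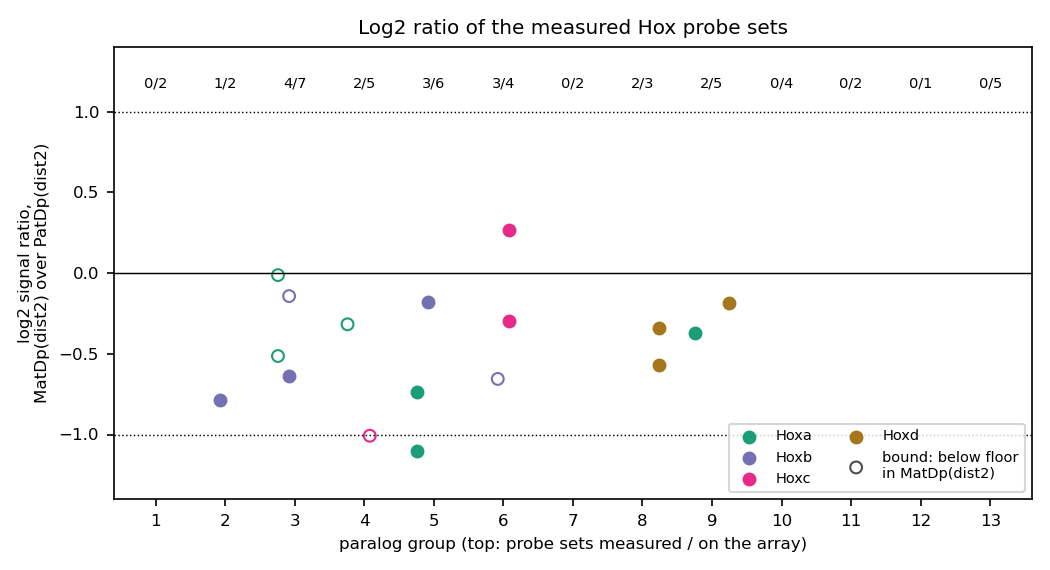
Log2 ratio of the MatDp(dist2) over the PatDp(dist2) signal (y axis) of the 17 measured Hox probe sets by paralog group (x axis), coloured by cluster. Open circles are bounds with the MatDp(dist2) signal at the floor, dotted lines are 2-fold, and the numbers at the top give measured probe sets over all. Of the points 16 lie below 0, and groups 1, 7 and 10 to 13 have none.

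By position, the median log2 ratio was -0.51 over the 7 measured probe sets of groups 1 to 4 and -0.46 over the 8 of groups 5 to 8. With 2 measured probe sets, groups 9 to 13 have no median. Of the 7, 5 are bounds with the MatDp(dist2) signal set to the floor, as is 1 of the 8, so the first median is itself a bound and the blocks are not compared. With the signals as deposited, without the floor, the medians were -0.79 and -0.46. Most measured probe sets of both blocks were lower in MatDp(dist2).

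By cluster, the median log2 ratio was -0.44 for the 6 measured probe sets of Hoxa on Chr 6, -0.64 for the 5 of Hoxb on Chr 11, -0.30 for the 3 of Hoxc on Chr 15 and -0.34 for the 3 of Hoxd on Chr 2. Hoxd was the only cluster on a chromosome of the translocation. The order of the medians depended on the floor, and at the 30th percentile they were -0.68 for Hoxa, -0.55 for Hoxb, -0.87 for Hoxc and -0.18 for Hoxd. The 9 Hoxd genes all precede H13, an imprinted gene of distal Chr 2, in the gene order of the chromosome. The labels do not place the breakpoint, so whether Hoxd lay in the duplicated part is not settled here. The median of the family stayed below 0 under median centring, quantile normalization and a loess fit, at -0.41, -0.50 and -0.51.

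**Figure D3:**
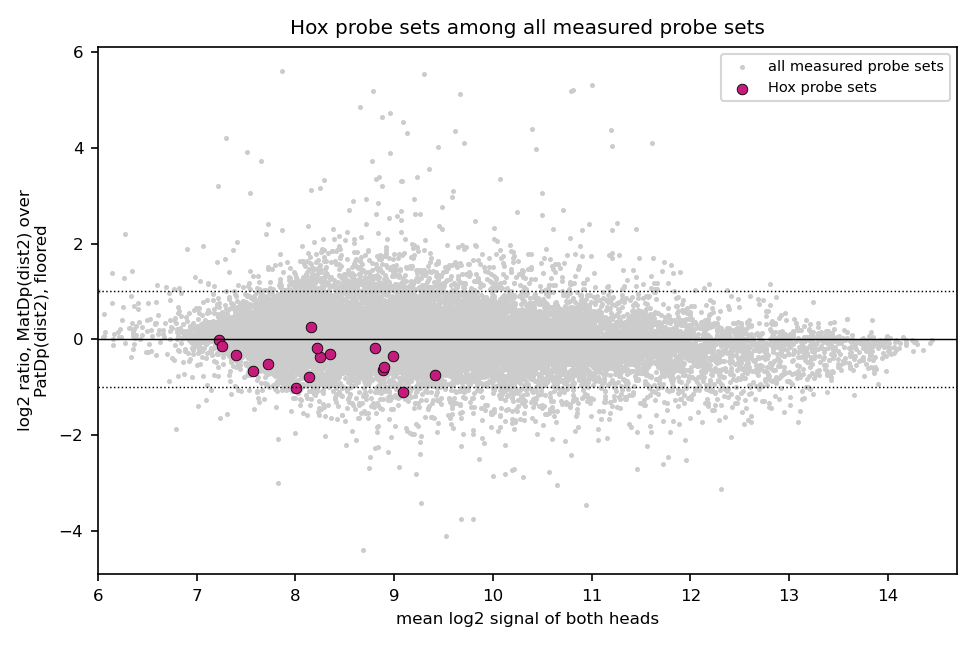
Log2 ratio of the MatDp(dist2) over the PatDp(dist2) signal, with signals below the floor set to it (y axis), against the mean log2 signal of both heads (x axis) for all 20764 measured probe sets (grey) and the 17 measured Hox probe sets (coloured). Dotted lines are 2-fold. The Hox points lie at the dim end, from a mean log2 signal of 7.23 to 9.42, and 2 of them lie past the lower line.

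Genes for partners of Hox proteins, for retinoic acid and for the Trithorax and Polycomb groups had list medians above 0 under the deposited scaling. Gmnn and Egr2, each the only measured gene of its list of regulators, had lower signals in MatDp(dist2). For these lists 1 probe set per gene was taken, that with the highest mean log2 signal, and the background over all 12483 measured genes was 4.43% at least 2-fold higher and 3.47% at least 2-fold lower in MatDp(dist2). In signal, without a fold threshold, 52% of these genes were higher and 48% lower in MatDp(dist2). A gene measured in 1 head alone had to be higher there. Of 7 measured genes for cofactors of the TALE class, the homeodomain proteins that bind DNA with Hox, 0 passed 2-fold either way and 6 were higher in MatDp(dist2), and the median log2 ratio was 0.25. Meis2 had signals of 3937 in MatDp(dist2), against 2056 in PatDp(dist2), Pbx3 of 3226 in MatDp(dist2), against 1760 in PatDp(dist2), Meis3 of 411 in MatDp(dist2), against 265 in PatDp(dist2), and Meis1 of 809 in MatDp(dist2), against 679.7 in PatDp(dist2). These genes are also used in the forebrain, where Hox genes are not.

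Of 14 measured genes for the synthesis, breakdown and reception of retinoic acid, the signal that switches on Hox genes in sequence, 2 were at least 2-fold higher in MatDp(dist2) and 0 lower. They were Cyp26b1, an enzyme that breaks down retinoic acid (613 in MatDp(dist2), against 242 in PatDp(dist2)), and the binding protein gene Crabp1 (583 in MatDp(dist2), against 264 in PatDp(dist2)). Cyp26a1, a related enzyme, took the other direction with signals of 243.5 in MatDp(dist2), against 379.8 in PatDp(dist2). The median log2 ratio of the list was 0.11 and changed sign under quantile normalization (-0.04) and the loess fit (-0.01). Of 21 measured genes of the Trithorax and Polycomb groups, which keep Hox clusters open or closed, 0 passed 2-fold, and the median was 0.25. Phc1, a Polycomb subunit, had signals of 1108 in MatDp(dist2), against 643 in PatDp(dist2). Gmnn, which encodes geminin, an antagonist of Hox proteins, had 751.5 in MatDp(dist2), against 878 in PatDp(dist2).

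The early activators of Hox genes were mostly below the floor. Of 5 hindbrain regulators on the arrays only Egr2 was measured, a regulator of rhombomeres that also drives myelin in Schwann cells, with signals of 167.5 in MatDp(dist2), against 237 in PatDp(dist2). The 6 ParaHox and Cdx genes, relatives of the Hox clusters that act in gut and tail, all lay under the floor on both arrays.

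Regional markers of the brain differed by region. Of 13 measured regulators of forebrain and midbrain, where Hox genes are not used, 7 were at least 2-fold higher in MatDp(dist2) and 0 lower. Of the 13, 7 were measured in MatDp(dist2) alone and so had to be higher there, and the 6 measured in both heads were higher too. The median log2 ratio was 1.04. It was 0.35 when the floor was raised to the 70th percentile, 1.57 when it was lowered to the 30th, and the value with an offset of 100 lay between these. The summed signal of the 17 genes on the arrays was 10308 in MatDp(dist2), against 2763 in PatDp(dist2). Bright genes weigh most in such a sum. Neurod6, the brightest of the 17 in MatDp(dist2), had a signal of 2752 there and of 90.1, below the floor, in PatDp(dist2). Lhx2, a selector of the cortex, had signals of 924 in MatDp(dist2), against 253 in PatDp(dist2), and Bcl11b, a gene of deep layer cortical neurons, of 2481 in MatDp(dist2), against 827 in PatDp(dist2). Of 8 measured genes of the cerebellum, 2 were at least 2-fold higher in MatDp(dist2), Zic1 (3371 in MatDp(dist2), against 1289 in PatDp(dist2)) and Zic5 (387 in MatDp(dist2), against 89.6 in PatDp(dist2)), and the median was 0.63. Zic genes are used outside the cerebellum too. Of the 19 cerebellum genes on the arrays, 11 lay under the floor on both arrays. Among them were Atoh1, Barhl1, En1, En2, Pcp2, Gabra6 and Cbln3, so the median gives no reading of cerebellum content.

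Of 9 measured genes of hindbrain and brainstem neurons 0 passed 2-fold, with 5 higher and 4 lower in MatDp(dist2) and a median log2 ratio of 0.00, which ranged from -0.12 to 0.33 over the other scalings, the lower floor and the offset. The serotonin transporter gene Slc6a4 had signals of 402 in MatDp(dist2), against 232 in PatDp(dist2), while the glycine transporter gene Slc6a5 had 159 in MatDp(dist2), against 304 in PatDp(dist2), and Lbx1, a gene of dorsal sensory and of migrating muscle cells, 192 in MatDp(dist2), against 297 in PatDp(dist2). Of the 18 genes on the arrays, 9 lay under the floor. Of 6 measured motor neuron genes 0 passed 2-fold, with a median of 0.14. The other 5 of the 11 on the arrays, Chat, Slc18a3, Slc5a7, Mnx1 and Lhx4, lay under the floor on both arrays. The median thus gives no reading of motor neuron content. Prph, the filament peripherin of motor and peripheral neurons, was 1.96-fold lower in MatDp(dist2), with signals of 480.4 in MatDp(dist2), against 942 in PatDp(dist2), while Isl1 had 879 in MatDp(dist2), against 600.4 in PatDp(dist2).

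Genes of somites and vertebrae, from which much of the neck forms, were mostly lower in MatDp(dist2). Of 10 measured members 0 passed 2-fold and 8 were lower in MatDp(dist2), and the median log2 ratio was -0.56, which became -0.17 with the floor at the 30th percentile. The summed signal of the 14 genes was 4858 in MatDp(dist2), against 6565 in PatDp(dist2). Meox2, a homeobox gene of limb and trunk muscle, had signals of 777 in MatDp(dist2), against 1529 in PatDp(dist2), Meox1, needed for the joint of skull and neck, of 216 in MatDp(dist2), against 382 in PatDp(dist2), and Pax9, a gene of vertebrae, teeth and palate, of 221 in MatDp(dist2), against 351 in PatDp(dist2). Pax1, Uncx and Nkx3-2, which define vertebral precursors, lay under the floor on both arrays. Genes of the Hox-free neural crest of face and skull had a median of 0.05 over 16 measured members, with 2 at least 2-fold higher in MatDp(dist2), Tfap2b (1228 in MatDp(dist2), against 393 in PatDp(dist2)) and Lhx6 (448 in MatDp(dist2), against 192 in PatDp(dist2)), and 0 lower. That median changed sign under quantile normalization (-0.10) and the loess fit (-0.02).

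Organs of the neck and trunk were read through their defining genes. Tg, thyroglobulin of the thyroid, was measured in both heads and was 2.04-fold lower in MatDp(dist2), with signals of 877 in MatDp(dist2), against 1785 in PatDp(dist2). Of the 5 measured genes of thyroid, parathyroid and thymus it was the only one past 2-fold, and the median of the list was -0.04. That median depended on the setting. It was -0.15 under quantile normalization, -0.40 with an offset of 100 and -0.52 with the floor at the 30th percentile. The thymocyte gene Cd8a (371 in MatDp(dist2), against 257.8 in PatDp(dist2)) and the calcium sensor gene Casr (254.8 in MatDp(dist2), against 242.5 in PatDp(dist2)) were higher in MatDp(dist2). Of the 15 genes on the arrays 10 lay under the floor on both arrays. Among them were the other thymus genes, Foxn1, Psmb11, Rag1, Rag2, Ptcra, Cd3e, Cd4 and Dntt, so Cd8a gives no reading of thymus content. Pth, the parathyroid hormone gene, had signals of 98.7 in MatDp(dist2), against 240.1 in PatDp(dist2). Of 7 measured genes of larynx, trachea and lung, 2 were at least 2-fold lower in MatDp(dist2), the secretoglobin genes Scgb3a2 (768.5 in MatDp(dist2), against 4061 in PatDp(dist2)) and Scgb1a1 (227 in MatDp(dist2), against 707 in PatDp(dist2)), which are also made in the nose. Sftpb, a surfactant protein gene, was at least 2-fold higher (409.5 in MatDp(dist2), against 146 in PatDp(dist2)).

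Markers of trunk organs were partly above the floor. The surfactant gene Sftpc, which defines lung, was near the floor, at 212 in MatDp(dist2), against 194.8 in PatDp(dist2). Of the 10 heart genes 6 were measured, and 1 passed 2-fold, Myl2 (593 in MatDp(dist2), against 1755 in PatDp(dist2)), which slow skeletal muscle also makes. Myl4, a myosin light chain gene of the atria that immature skeletal muscle also makes, had signals of 5262 in MatDp(dist2), against 5441 in PatDp(dist2). Nkx2-5 took the other direction, with signals of 301 in MatDp(dist2), against 205 in PatDp(dist2), and Hand2 had 278 in MatDp(dist2), against 368 in PatDp(dist2). Nppb and Tbx5 reached the floor in PatDp(dist2) alone, at 214 and 210. The heart genes Nppa, Myh6 and Myl7 lay under the floor on both arrays. All 11 genes of liver and gut lay below it. Genes of fat, some of which lies in the neck, were mostly lower in MatDp(dist2). Of 6 measured genes 5 were lower, 4 of them at least 2-fold. The other, Prdm16, was higher, with signals of 583 in MatDp(dist2), against 446 in PatDp(dist2). The list had a median of -1.46 and a summed signal of 23293 in MatDp(dist2), against 56347 in PatDp(dist2). Cidea had signals of 2677 in MatDp(dist2), against 11022 in PatDp(dist2), and Ucp1, the heat-making protein of brown fat, of 5963 in MatDp(dist2), against 13932 in PatDp(dist2). Most measured fat and somite genes thus had the direction of most measured Hox probe sets, and measured forebrain genes had the other. The part of each in the Hox values was not tested.

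**Figure D4:**
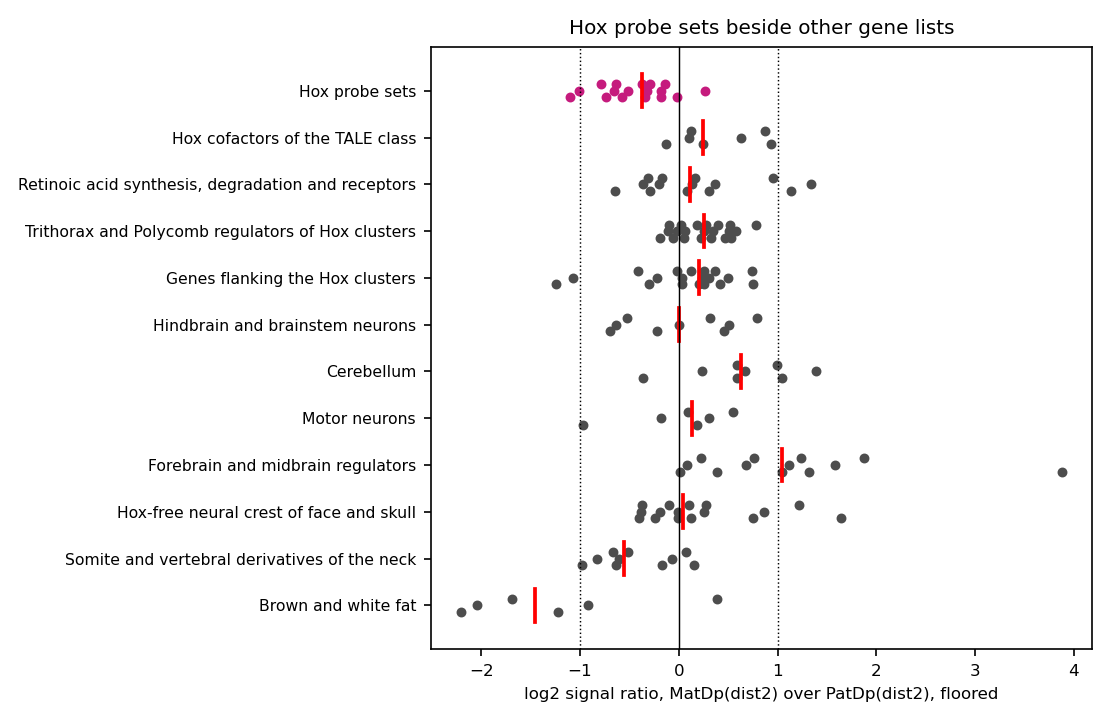
Log2 ratio of the MatDp(dist2) over the PatDp(dist2) signal, with signals below the floor set to it (x axis), for the 17 measured Hox probe sets (top row) and for measured genes of 11 lists (1 probe set per gene). Each point is a probe set, red bars are medians and dotted lines are 2-fold. The medians are -0.37 for Hox, -0.56 for somite genes, 0.00 for brainstem genes and 1.04 for forebrain and midbrain genes, the last between 0.35 and 1.57 under other floors. The retinoic acid, neural crest and brainstem medians changed sign under quantile normalization or the loess fit.

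Several Hox genes overlap in their gene models, so that a probe set can read transcripts of a neighbour. In RefSeq, Hoxa3 overlaps Hoxa4, Hoxa5 and Hoxa6, Hoxb3 overlaps Hoxb4, Hoxd3 overlaps Hoxd4 and Hoxd10 overlaps Hoxd11. Probe sets with the suffix _a_at, _s_at or _x_at can match more than 1 transcript. Without them, an alternative added after the data were seen, 12 Hox probe sets were measured, 11 were lower in MatDp(dist2), 2 of them at least 2-fold, and the median log2 ratio was -0.36.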

How the data were processed

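RNA of whole newborn heads was measured on 1 array for MatDp(dist2) and 1 for PatDp(dist2). Intensity values are the deposited linear signals of 45101 probe sets. MAS5 and GCOS, Affymetrix software, made them, per the submitters' processing notes, with no version named. After 2% of probe sets were trimmed at each end, the mean was 500.002 on each array, so the arrays had been scaled to 1 trimmed mean. Of the probe sets, 34945 had 1 gene symbol in the platform annotation, and 34741 of them had symbols updated through a RefSeq table for GRCm38.p6. The 932 probe sets with several symbols, 64 controls and the rest were left out of the members, the gene lists and the backgrounds. Those of the 932 that carry symbols of Hox genes are described among the other observations.

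Log2 ratios were computed with Python 3.11.15 and pandas 2.3.3 after signals below the floor of 187 were set to it. The calculation was tested on simulated data. A fixed 2-fold rule took the place of a test. The alternatives were median centring, quantile normalization, a loess fit, floors at the 30th and 70th percentiles, an offset of 100, 1 probe set per gene and thresholds of 1.5-fold and 3-fold. All measured members are named, and from each of 20 gene lists up to 4 genes with the largest ratios and up to 2 of the brightest could be named. Some further list genes are named beside these. Of 288 list entries 248 were on the arrays. The members and lists were chosen with earlier results of these data known.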

Additional observations from a re-analysis of the deposited data

How the results depend on the processing

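The count of Hox probe sets at least 2-fold lower in MatDp(dist2) was 2. It became 5 when the floor was lowered to the 30th percentile, 0 when it was raised to the 70th and 1 with 1 probe set per gene. At thresholds of 1.5-fold and 3-fold it was 6 and 0. With an offset of 100 it was also 2, but counted over all 48 Hox probe sets. None of the 17 measured ones passed 2-fold there, with log2 ratios of -0.93 and -0.64 for Hoxa5 and -0.79 for Hoxc4. The 2 that passed lay under the floor on both arrays. The count of Hox probe sets at least 2-fold higher was 0 under every alternative. The number of measured Hox probe sets was 30 under the lower floor and 6 under the higher one, against 17, since the floor sets it directly. Of the 30, 25 were lower in MatDp(dist2), and of the 6 all were. The median log2 ratio of the family ranged from -0.56 to -0.33 and did not change sign, and neither did the medians of the clusters or of paralog groups 1 to 4 and 5 to 8. With an offset of 100 no signal was set to the floor, but the medians were still taken over the 17 probe sets measured at the main floor. That setting thus gives no number of measured probe sets of its own. Under the lower floor the bounds of 4 single probe sets moved by over 1.5-fold, for Hoxa3 1427433_s_at to -0.67, Hoxb3 1427605_at to -0.87, Hoxa4 1427354_at to -0.92 and Hoxb6 1451660_a_at to -1.26 in log2 ratio. No paired analysis was possible because each genotype has 1 array. Hox signals lay at the dim end of the arrays, and with no replicate the noise of a single signal there is unknown.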

Other observations

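Transcripts of the Hox clusters other than the members gave few values. Hoxd3os1, an opposite-strand transcript of the Hoxd cluster, had signals of 237 in MatDp(dist2), against 400.3 in PatDp(dist2) on 1460056_at, 1.69-fold lower in MatDp(dist2), and lay under the floor on 1430263_at at 86.3 in MatDp(dist2), against 69.4 in PatDp(dist2). Hoxb5os and both probe sets of Hoxa11os lay under the floor on both arrays. Of the 3 probe sets that carry the symbols of more than 1 Hox gene, 1450209_at for Hoxd4 and Hoxd3 was measured, with signals of 239 in MatDp(dist2), against 219 in PatDp(dist2). The probe set 1421537_at for the same genes lay under the floor at 71.9 in MatDp(dist2), against 133 in PatDp(dist2), and 1452493_s_at for Hoxb8 and Hoxb7 at 44.0 in MatDp(dist2), against 56.2 in PatDp(dist2).

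Of 19 measured genes that flank the Hox clusters, 13 were higher in MatDp(dist2), where 52% of all measured genes were, and 0 at least 2-fold. Of the 13, 2 were measured in MatDp(dist2) alone. The median log2 ratio was 0.21, and ranged from 0.03 with the floor at the 70th percentile to 0.22 with it at the 30th. The 2 neighbours at least 2-fold lower in MatDp(dist2) both flank Hoxa. They were Hibadh, a mitochondrial enzyme of valine breakdown, with signals of 3205.5 in MatDp(dist2), against 7564 in PatDp(dist2), and Skap2, an adaptor protein of white blood cells, with 542 in MatDp(dist2), against 1139 in PatDp(dist2). Evx2, a homeobox gene at the end of the Hoxd cluster, had signals of 204 in MatDp(dist2) and 153.5, below the floor, in PatDp(dist2).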
